A study of Rattus norvegicus with 3 samples.

Results

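Growth-associated proteins and stathmins are 2 protein groups of the growing axon, and their RNA was followed here in commissural neurons of the rat spinal cord. GAP-43 (Gap43), Basp1 (also called CAP-23), Marcks and Marcksl1 are acidic proteins held at the inner face of the plasma membrane, where they bind the lipid PIP2 and act on the actin cortex; GAP-43 and the MARCKS proteins also bind calmodulin and are phosphorylated by protein kinase C. Stathmins bind tubulin dimers and lower microtubule stability until kinases phosphorylate them. Stmn1 encodes the cytosolic founding member, while the proteins of Stmn2 (SCG10), Stmn3 (SCLIP) and Stmn4 (RB3) carry a palmitoylated tail and sit on Golgi and growth cone membranes. Gprin1 encodes a partner of activated Go-class G proteins in neurite outgrowth.

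The genes were chosen by symbol. Of the 10 names searched, 8 matched 11 of the 26353 entries of the table, regardless of case. Cap23 and Gprin1 matched no symbol and were not analysed here. The series has 1 group of 3 libraries, without a treated or control arm: neurons isolated from rat embryos of embryonic day 13, grown for 2 days in vitro, called libraries 1, 2 and 3 by their replicate numbers. No genotype, strain or agent is named for them, and nothing says that they came from separate cultures or litters, so the p-values measure only a spread between samples that may be technical. Values are FPKM as the authors deposited them, that is, fragments scaled to transcript length and to mapped fragments, which allows levels to be set against each other between genes. A bias of one gene over another that recurs in every library, for example from read mapping, is not covered by the tests. The file gives no counts, so the depth behind a value is unknown.

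The RNA of the cultures held the markers of their label and markers of other cells. All 7 neuronal markers and all 4 commissural axon markers lay above 1 FPKM in limma's test, as did 6 of 6 progenitor and 5 of 5 proliferation markers; 63.7% of all entries tested did so too. Summed marker levels ranged over the libraries from 1711 to 1860 FPKM for neurons, 172 to 252 for commissural axons, 947 to 1203 for progenitors and 110 to 130 for proliferating cells. They were lower for astrocytes (28.4 to 31.2 FPKM, with Gfap at 0 in library 2), erythroid cells (13.1 to 57.8), macrophages (7.01 to 10.9), the oligodendrocyte lineage (3.33 to 3.79, with Olig1 at 0 in libraries 1 and 2), fibroblasts (2.70 to 3.76) and endothelium (0.29 to 0.47 FPKM). Of these, 2 of 4 astrocyte, 1 of 3 erythroid, 2 of 4 macrophage, 1 of 4 oligodendrocyte and 1 of 3 fibroblast markers passed. Pecam1, Cldn5 and Kdr of the endothelium had at most 0.31 FPKM in any library. The erythroid list holds Hba1, Hbb and Alas2 only. It leaves out the globin entries Hba2, Hbz, Hbg1 and Hbe1, each with a mean of at least 5 FPKM, so its sum does not cover all globin RNA. Stathmin and MARCKS genes are also known from dividing neural cells, and which cells gave the RNA was not tested. In RNA of whole cultures, fewer cells of a type and less RNA per cell cannot be told apart.

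Stmn1 (ENSRNOG00000016810) was the most abundant of the group. Its levels in libraries 1, 2 and 3 were 1792, 2127 and 1747 FPKM, a mean of 1889 ± 207 (SD, n = 3). By mean level it ranked 6 among the 18906 entries with a symbol and a description. Marcksl1 (ENSRNOG00000009113), whose protein is the smaller relative of MARCKS, had 986, 1155 and 989 FPKM in the same order of libraries. Its mean of 1043 ± 96.6 FPKM (SD, n = 3) ranked 19. The table describes this entry as MARCKS-related protein-like, in the same words as the other entries under the symbol, so it is the Marcksl1 gene by its symbol and by the rule of the highest mean alone. Libraries 1 and 3 lay close together for both genes, and library 2 was the highest.

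The neuronal stathmins followed. Stmn2 (ENSRNOG00000011705), a marker of growing axons, stood at 420, 482 and 404 FPKM in libraries 1, 2 and 3, with a mean of 435 ± 41.0 (SD, n = 3; rank 104). Stmn3 (ENSRNOG00000013657) followed with 242, 315 and 257 FPKM and a mean of 271 ± 38.6 (rank 180). The levels of Stmn4 (ENSRNOG00000009186) were 231, 264 and 224 FPKM in libraries 1, 2 and 3, with a mean of 239 ± 21.5 (rank 211). Library 2 was again the highest for each, and the ranges of Stmn3 and Stmn4 over the libraries overlapped.

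Marcks and Gap43 came last. Like the far more abundant Marcksl1, they are genes of membrane-bound substrates of protein kinase C. Marcks (ENSRNOG00000000579), the founding MARCKS gene, gave 214, 224 and 208 FPKM in libraries 1, 2 and 3. Its mean was 215 ± 8.11 FPKM (SD, n = 3; rank 233), and its coefficient of variation of 3.77% was the smallest of the 7 genes, whose largest was 14.2% for Stmn3. Gap43 (ENSRNOG00000001528), the classic growth cone gene, gave 126, 130 and 116 FPKM. With a mean of 124 ± 7.47 FPKM (SD, n = 3; rank 471) it was the lowest of these 7 genes in every library.

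**Figure D1:**
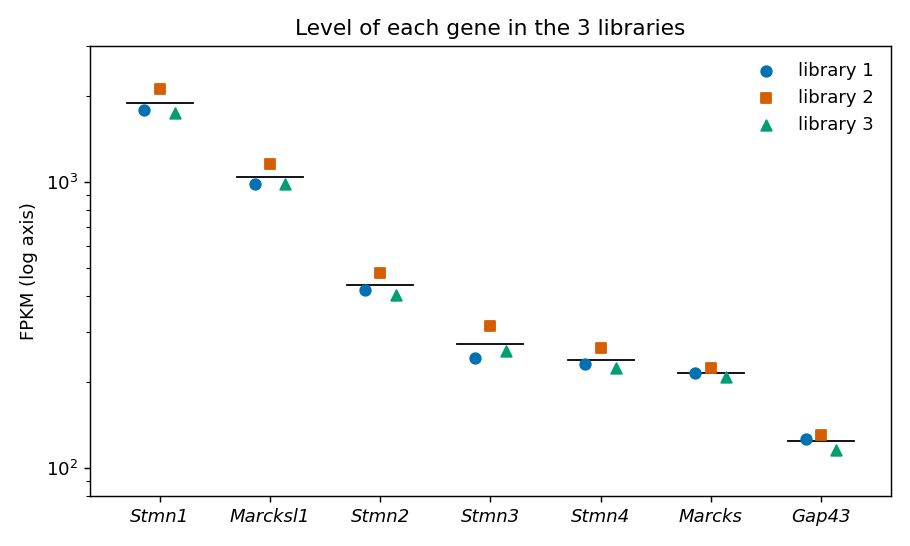
FPKM (log axis) of the 7 genes with values in every library, in order of their mean; points are libraries 1, 2 and 3 and the bar is their mean. Stmn1 averaged 1889 FPKM and Gap43 124, and library 2 gave the highest value of each gene.

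The remaining 4 entries were at or near 0. The entry under the symbol Basp1 (ENSRNOG00000046107) is described in the table as a Basp1-like gene and was listed at 0, 0.10 and 0 FPKM in libraries 1, 2 and 3. The table does not say whether it is the Basp1 gene itself, so this value is not read as the level of Basp1. A second entry under Marcksl1 (ENSRNOG00000046775) had 0.23, 0.28 and 0.23 FPKM, and another (ENSRNOG00000046423) was listed at 0 in each library, as was a second Stmn1 entry (ENSRNOG00000029091). Repeated symbols can stand for near-identical copies, and the authors' handling of reads that map to several of them is not given in the sources used here, so the levels of Stmn1 and Marcksl1 are uncertain to that extent.

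A one-sided limma test against a level of 1 FPKM, run over 17611 entries, called all 7 genes (Benjamini-Hochberg adjusted p = 1.36e-11 for each). Of the entries tested, 63.7% were called, while the Basp1-like entry and the second Marcksl1 entry were not. The summed level of the 7 genes came to 4012, 4696 and 3944 FPKM in libraries 1, 2 and 3. This was 0.880%, 0.983% and 0.762% of the FPKM summed over entries with a mean of at most 10000 FPKM. That limit leaves out a few features of extreme value, nearly all unnamed, which hold most of the summed FPKM. Entries under the limit summed to 455946, 477484 and 517730 FPKM in libraries 1, 2 and 3. All entries summed to 25032147, 19897930 and 26236642 FPKM, so these percentages are not shares of the whole sum.

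Start sites of the highest and a lower gene of each family are shown next, since the relatives differ severalfold in level. RefSeq's promoter table (assembly GRCr8, a later build than the rn6 named in the submitters' processing notes) matched 6 of 9 names. It holds 250 bases before and 50 after each start. Capitals mark, on either strand, the box CCAAT, the GC box core GGGCGG and the E-box CACGTG. The box TATAAA was searched as well, and no motifs overlap in these windows.
Stmn1, chr5:151964929-151965228, plus strand: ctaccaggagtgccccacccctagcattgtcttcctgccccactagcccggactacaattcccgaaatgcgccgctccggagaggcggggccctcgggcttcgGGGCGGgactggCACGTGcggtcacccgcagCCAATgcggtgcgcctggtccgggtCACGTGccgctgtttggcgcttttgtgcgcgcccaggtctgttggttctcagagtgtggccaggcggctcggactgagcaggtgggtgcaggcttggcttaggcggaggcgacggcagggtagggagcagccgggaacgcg
Stmn3, chr3:188802445-188802744, minus strand: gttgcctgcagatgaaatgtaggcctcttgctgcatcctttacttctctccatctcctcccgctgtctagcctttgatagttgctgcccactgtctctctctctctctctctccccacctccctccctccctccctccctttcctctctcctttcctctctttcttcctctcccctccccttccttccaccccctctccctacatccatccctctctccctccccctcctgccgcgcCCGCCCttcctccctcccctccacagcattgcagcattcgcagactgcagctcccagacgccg
Marcksl1, chr5:147135577-147135876, plus strand: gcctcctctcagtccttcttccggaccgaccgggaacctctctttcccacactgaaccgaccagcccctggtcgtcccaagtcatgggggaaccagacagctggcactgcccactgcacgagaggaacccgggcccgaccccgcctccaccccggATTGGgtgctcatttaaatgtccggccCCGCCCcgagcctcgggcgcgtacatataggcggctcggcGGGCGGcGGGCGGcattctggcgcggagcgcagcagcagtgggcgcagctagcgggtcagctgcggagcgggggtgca
Marcks, chr20:42245833-42246132, minus strand: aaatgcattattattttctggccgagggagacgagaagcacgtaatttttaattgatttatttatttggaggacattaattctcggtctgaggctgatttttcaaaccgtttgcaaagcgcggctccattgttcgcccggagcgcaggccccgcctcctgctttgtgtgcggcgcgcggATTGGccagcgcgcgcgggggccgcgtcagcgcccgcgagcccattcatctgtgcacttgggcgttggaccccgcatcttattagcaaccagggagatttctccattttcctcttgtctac

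The Stmn1 window held CACGTG at 2 places, a motif found in 6.42% of the 33469 windows of the table. The GC box core stood at 3 places in Marcksl1, 1 in Stmn1 and 1 in Stmn3, and in 33.1% of all windows. CCAAT stood once each in Stmn1, Marcksl1 and Marcks and in 37.5% of all windows, while TATAAA stood in none of the 4 windows and in 14.2% of all. The dinucleotide CG occurred 28 times in Stmn1, 29 in Marcksl1 and 26 in Marcks, but 7 times in Stmn3, which equals the median of all windows. Long runs of C and T fill much of the Stmn3 window. These matches describe the letters of the windows and were not tested against expression.

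Relatives were then compared within each library. The test asked, for every entry, whether its log2(FPKM + 0.1) differed from that of a given gene in the same library (limma, two-sided, Benjamini-Hochberg adjustment over all 17610 other entries). Of the 21 pairs of the 7 genes, 21 differed past the threshold of 0.05, each in the same direction in 3 of 3 libraries. Which gene of a pair is on top follows from the order of the means, and the pairs share genes. For comparison, 2.65% of all entries were called higher than Gap43, 1.48% higher than Marcks and 1.39% higher than Stmn4. The shares called higher were 1.2% for Stmn3, 0.806% for Stmn2 and 0.278% for Marcksl1. These shares leave out entries called lower, so they are not the share of all entries that differed. The count of 21 is therefore not read as particular to these genes. Tested against a margin of 1.5-fold, 18 of the 21 pairs passed; the other 3 were Stmn3 over Stmn4, Stmn3 over Marcks and Stmn4 over Marcks.

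In the order of levels, the ratio of Stmn1 over Marcksl1, fitted on the log2(FPKM + 0.1) scale, was 1.81 (95% interval from 1.74 up to 1.88; adjusted p = 1.40e-07 by limma). Marcksl1 exceeded Stmn2 by 2.40-fold (2.28 to 2.51) and Stmn2 exceeded Stmn3 by 1.61-fold (1.49 to 1.74). The middle of the order was close. Stmn3 was 1.05, 1.19 and 1.15 times Stmn4 in libraries 1, 2 and 3, and the fitted ratio was 1.13 (1.05 to 1.22; adjusted p = 0.00836 by limma). The fitted ratio of Stmn4 over Marcks was 1.11 (1.01 to 1.22; adjusted p = 0.0347 by limma). This last call was lost without library 1 (adjusted p = 0.0930 by limma) and without library 3 (0.196), and over all alternatives its adjusted p ran from 0.0212 to 1.00. Both close calls were also lost with a plain variance prior. Marcks exceeded Gap43 by 1.74-fold (1.56 to 1.93).

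**Figure D2:**
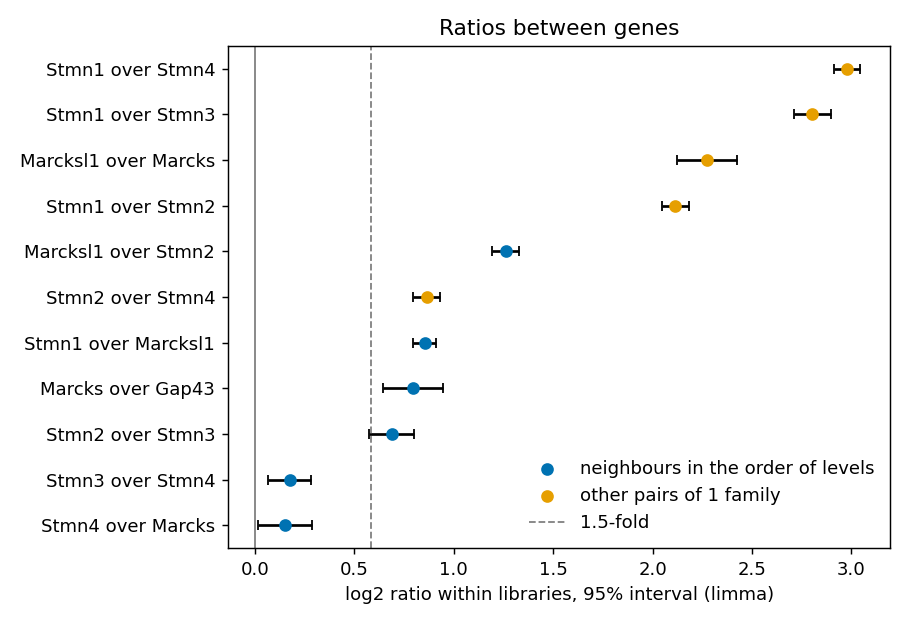
Log2 ratio of the first gene over the second within libraries, with limma's 95% interval, for neighbours in the order of levels and for other pairs within the stathmin and MARCKS families; the dashed line is 1.5-fold. Stmn3 over Stmn4 (log2 ratio 0.17) and Stmn4 over Marcks (0.15) are the pairs whose intervals lie wholly below that line.

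Within the stathmin family, Stmn1 exceeded Stmn2 by 4.33-fold (4.14 to 4.54), Stmn3 by 6.98-fold (6.55 to 7.44) and Stmn4 by 7.88-fold (7.52 to 8.26). Stmn2 exceeded Stmn4 by 1.82-fold (1.74 to 1.90), with 1.82, 1.83 and 1.81 in libraries 1, 2 and 3, while both levels were highest in library 2. Of the FPKM summed over the 4 genes, Stmn1 made up 66.7%, 66.7% and 66.4% in libraries 1, 2 and 3. The other shares were 15.4% ± 0.267 for Stmn2, 9.55% ± 0.470 for Stmn3 and 8.45% ± 0.162 for Stmn4 (SD, n = 3). The cytosolic stathmin had more RNA per length than the 3 membrane-bound stathmins together in each library, and the family's makeup varied little.

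In the MARCKS pair, Marcksl1 was 4.61, 5.16 and 4.76 times Marcks in libraries 1, 2 and 3. The fitted ratio was 4.84 (4.36 to 5.36; adjusted p = 8.28e-09 by limma). Against Gap43, Stmn1 was 15.2-fold higher (13.5 to 17.1), Marcksl1 8.40-fold (7.50 to 9.39) and Stmn2 3.50-fold (3.15 to 3.90).

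All 7 genes were higher in library 2 than in the mean of libraries 1 and 3. Of 8023 described entries with a mean of at least 5 FPKM, 76.6% were, with a median log2 difference of 0.14, so the count for the 7 genes is read against that shift. Stmn3 differed by 0.34, Stmn1 by 0.27, Marcksl1 by 0.23, Stmn2 by 0.23 and Stmn4 by 0.22 on the log2 scale. Gap43 (0.11) and Marcks (0.09) lay below the median of the 8023 described entries. Stmn3 was above 92.6% of the described entries in this difference, and Marcks above 37.1%. In the same library, 22 of 22 genes with long transcripts were lower, with a median of -0.95, and 95 of 96 ribosomal protein genes were higher, with a median of 0.33. Both lists were chosen with earlier results of these data known, so their counts are not independent of them. The summed commissural axon markers were lowest in library 2 (172 FPKM). Robo3, Dcc and Cntn2 of that list were lowest there, while Boc was highest (15.7 FPKM). The summed neuronal (1860 FPKM), progenitor (1203 FPKM) and proliferation markers (130 FPKM) were all highest in library 2. The part of these markers in the differences of the 7 genes was not tested. No label sets library 2 apart, and the order Stmn1, Marcksl1, Stmn2, Stmn3, Stmn4, Marcks and Gap43 was the same in all 3 libraries.

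**Figure D3:**
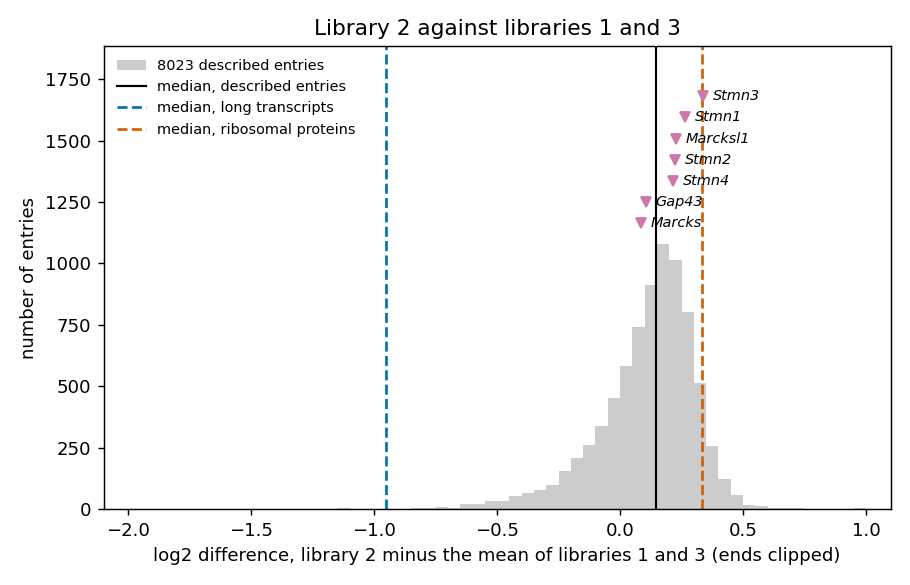
Histogram of the log2 difference of library 2 minus the mean of libraries 1 and 3, with ends clipped. It covers 8023 described entries with a mean of at least 5 FPKM. Triangles mark the 7 genes and lines the medians of these entries, of long transcripts and of ribosomal protein genes. The 5 genes Stmn1 to Stmn4 and Marcksl1 lie to the right of the median of the described entries (0.14), and Gap43 and Marcks to its left.

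Genes closest in level over the 3 libraries were sought for the 3 most abundant members, by the root mean square difference of log2 values. Nearest to Stmn1 were the entries under Actb (0.07 on the log2 scale), Rps29 (0.08) and Eef1a1 (0.20), symbols of beta-actin, a ribosomal protein and an elongation factor. The table describes the Actb entry as like gamma actin, and the other entries as -like too, so which gene copy each stands for is uncertain. Nearest to Marcksl1 were Nrep (0.05, with 970, 1120 and 945 FPKM in libraries 1, 2 and 3), Ptma (0.07) and Cfl1 (0.09), the last a symbol of the actin-severing protein cofilin. Nearest to Stmn2 were Mllt11 (0.02, with 426, 491 and 404 FPKM), Hnrnpa2b1 (0.04) and Eif1 (0.04). The entries under Ptma and Hnrnpa2b1 are described as hypothetical, and those under Cfl1 and Eif1 as similar to a named gene. Which gene copy these stand for is uncertain too. With 3 libraries this measure mostly reflects equal mean level.

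Genes linked to these members were counted in 10 lists, from enzymes, partners and relatives of the proteins to RNA-binding and transcription factors. Among the 75 genes given, limma's test placed 67 above 1 FPKM (89.3%, against 63.7% of all entries), with a median level of 17.6 FPKM against 4.81 for all entries tested. With each library rescaled to a sum of 1000000, 25 did, against 13.4% of all entries. The lists were built from genes known in neurons, so this share is not read as a finding. The counts of single lists below are to be set against the same 63.7% and are likewise not read as findings.

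Calmodulin binds GAP-43 and MARCKS proteins, and the 2 calmodulin genes reported here lay above 1 FPKM, with Calm2 at 663 ± 70.8 and Calm3 at 282 ± 33.1 FPKM (SD, n = 3). Of the protein kinases C reported here, 7 of 8 passed, led by the atypical form Prkcz (20.9 ± 0.609), the conventional form Prkca (17.8 ± 0.570) and Prkci (17.3 ± 1.87). Prkcq (1.33 ± 0.307) passed narrowly (adjusted p = 0.0429 by limma) and was lost without library 2 (0.291) or library 3 (0.231), and Prkch (1.52 ± 0.185) was lost without library 2 (0.0660). Prkcd (0.763 ± 0.206) did not pass. Calcineurin, the phosphatase that removes phosphate from GAP-43, had 4 of 4 subunit genes above 1 FPKM, from Ppp3r1 at 87.0 ± 5.38, Ppp3cb at 62.6 ± 4.75 and Ppp3ca at 53.1 ± 3.10 down to Ppp3cc at 6.68 ± 0.225 FPKM.

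Kinases known to phosphorylate stathmins passed in 16 of 17 cases. The stress kinase JNK1 gene Mapk8 led with 102 ± 3.23 FPKM, followed by Prkacb (90.1 ± 8.52), a catalytic subunit of protein kinase A, and Pak1 (63.8 ± 3.63), a Rac and Cdc42 effector. The lowest were Camk4 (1.30 ± 0.131), which passed but not without library 1 or library 3 (adjusted p = 0.0874 and 0.0909 by limma), and Mapk13, listed at 0, 0 and 0.05 FPKM. Enzymes that attach or remove lipid anchors passed in 9 of 9 cases, with the thioesterase gene Lypla2 at 67.5 ± 6.79, the palmitoyltransferase gene Zdhhc3 at 32.2 ± 2.10 and Lypla1 at 24.5 ± 2.95 highest, and Zdhhc7 (10.8 ± 0.806) and Zdhhc15 (2.71 ± 0.312) lowest. The PIP2 list, kinases of the lipid that these proteins bind, passed in 5 of 6 cases. Pip5k1c had 43.5 ± 0.930 FPKM, Pip4k2b 39.6 ± 2.06 and Pip5k1a 12.5 ± 1.05, while Pip4k2a and Pip4k2c had 10.9 FPKM each and Pip5k1b 0.473 ± 0.133.

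RNA-binding regulators of Gap43 and Stmn2 passed in 7 of 7 cases. Elavl3, a neuronal Hu protein gene, had 144 ± 7.98 FPKM, Tardbp, whose product TDP-43 guards STMN2 splicing in human neurons, 109 ± 8.97, and Elavl2 70.8 ± 6.93. Elavl1 (19.3 ± 0.346) and Igf2bp1 (9.50 ± 0.792) were lowest. In the list of Gprin relatives and G proteins, 6 of 7 passed: Gnao1, which encodes the Go alpha subunit, had 120 ± 2.65 FPKM, Gnai2 93.6 ± 7.57 and Gnai3 55.2 ± 3.85. Gprin2 had 7.69 ± 0.105 FPKM and Gprin3 0.18 ± 0.0889.

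Of 4 matched repressors and corepressors, 3 passed (75%, against 63.7% of all entries). Sin3a had 15.7 ± 0.363, Rcor1 8.78 ± 0.142 and Rest, the repressor of Stmn2 in non-neuronal cells, 4.93 ± 0.187 FPKM. Wt1 was listed at 0, 0.02 and 0. Transcription factors known from axon growth and regeneration passed in 8 of 11 cases (72.7%, against 63.7% of all entries). Sox11 had 182 ± 17.5 FPKM, Jun 50.1 ± 4.60 and Smad1 29.9 ± 0.781, while Klf9, known as a brake on axon growth, had 0.52 ± 0.040 and Cebpd 0.413 ± 0.321 FPKM, neither above 1 FPKM in the test.

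**Figure D4:**
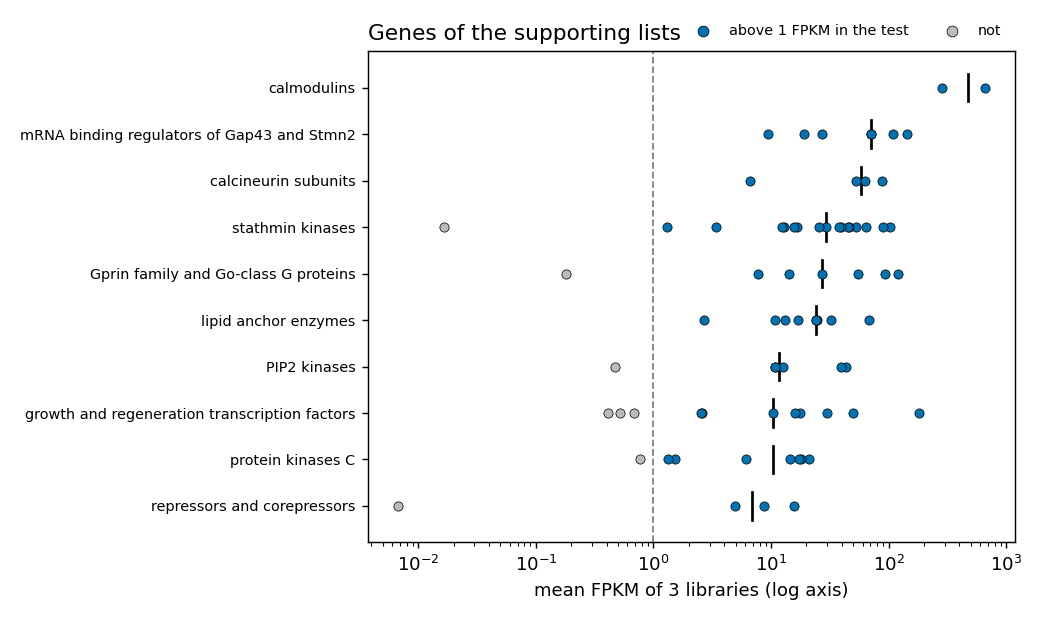
Mean FPKM of 3 libraries (log axis) of each gene of the 10 lists, with the list median as a bar and the level of 1 FPKM dashed; blue genes lay above 1 FPKM in limma's test and grey genes did not. The calmodulin list has the highest median (473 FPKM) and the list of repressors and corepressors the lowest (6.85 FPKM).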

How the data were processed

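The deposited table holds FPKM for each library in its own column. Per the submitters' processing notes, FastQC, Trimmomatic 0.22, STAR and the build rn6 were used; per the labels' protocols, polyadenylated RNA went into stranded libraries read as pairs of 50 bp. Which tool and annotation the authors used to compute FPKM, and whether strand was used, is not given in the sources used here; absolute depth is unknown. The FPKM were not rescaled and were put on the log2(FPKM + 0.1) scale, over entries above 0 in at least 1 library, and tested with limma 3.58.1 (R 4.3.3, statmod 1.5.0), using a trended, robust variance prior. Levels were tested against 1 FPKM, one-sided, and ratios to each gene within libraries, two-sided, the lower of a pair being the denominator. Adjustment was by Benjamini-Hochberg over all entries tested, at 0.05. Both tests were also run on simulated data with noise drawn separately for each entry. Such data hold no shift shared by many entries of a library, as seen in library 2, so that run does not cover it. For repeated symbols the entry with the highest mean was used. Of each list the 3 highest and 2 lowest genes are named (all in lists of 6 or fewer). Rcor2 matched no symbol, and some list genes are not reported here. The members and lists were chosen with earlier results of these data known, as were the long transcript and ribosomal lists. Other pseudocounts, filters, scalings, levels, a 1.5-fold margin, another prior and each library left out were tried. Figures used matplotlib 3.10.9.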

Additional observations from a re-analysis of the deposited data

How the results depend on the processing

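Rescaling each library to a sum of 1000000, a sum dominated by a few features of extreme value, left 2363 of 11218 entries and 25 of 67 list genes above 1 FPKM, and 7 of the 7 members. Other scalings, filters, pseudocounts and levels kept these counts within 1.5 times (8195 entries at 5 FPKM). The 1.5-fold margin ended the calls of Stmn3 over Stmn4 (log2 ratio 0.17) and Stmn4 over Marcks (0.15), as did the plain prior, with the ratios themselves as before (adjusted p over all alternatives 1.91e-04 to 1.00 and 0.0212 to 1.00, limma). With a library left out, Stmn4 over Marcks ranged from 0.11 to 0.17 and its call was lost without library 1 or 3; the cause was not tested. Of 88 combinations of a ratio and an alternative, 82 kept direction and side of the threshold. The 6 neighbouring pairs past the threshold became 4 with the margin and with the plain prior. Scaling cannot move ratios within a library beyond the pseudocount. Basp1 entered no ratio because its entry was at 0 in 2 libraries. No paired comparison of groups was possible because the series has 1 group. Ratios between genes were taken within libraries. Without counts, no limit from depth was computed.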
